A study of Mus musculus with 2 samples.

Results

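Early Kit or Cpa3 expressing double-negative (DN) thymocytes were taken as barcodes with at least 1 UMI of Kit and Cpa3 together, at most 2 UMIs of Ptcra, at most 1 of Cd8a and Cd8b1 together, none of Foxp3, Lyz2 or Cd79a, and at most 2 of the cycle genes Rrm2, Top2a, Mki67 and Ube2c together. The rule used measured values, so the levels of these genes describe the choice and are no result. It chose 385 cells of 7501 kept barcodes in the cKO library and 465 cells of 7137 in the WT library, 850 of 14638 in all. The study profiled mouse thymus cells enriched with anti-CD25 beads by droplet 3′ RNA sequencing, in which each unique molecular identifier (UMI) counts 1 captured transcript. The cKO library came from mice with a floxed SETDB allele and the CD4-Cre transgene (SETDBf/fCD4-Cre), and the WT library from WT mice. There was 1 library per genotype, the number of animals behind each is not stated, and strain, age and sex are not given in the labels. Which of Setdb1 and Setdb2 carried the floxed allele is not stated.

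Thymocytes begin as Kit-bearing progenitors that still have several fates open. Kit is the receptor for stem cell factor, and Cpa3, a carboxypeptidase best known from mast cells, is also transcribed in early thymic progenitors. As Notch signals commit the cells to the T lineage they gain CD25 (Il2ra), then lose Kit, start Rag1 and make the pre-TCR alpha chain (Ptcra) at the DN3 stage. CD4-Cre is known to act at the end of the DN stage or later, so the cells described here are usually thought to precede it. Whether the allele was deleted in them could not be seen, because 3′ tags need not cover the floxed part.

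The early cells were deep. They held a median of 11179 UMIs in cKO and 10250 in WT, against 4854 in cKO and 7882 in WT over all kept barcodes, and 4570931 UMIs in cKO and 5207007 UMIs in WT in all. Their median mitochondrial share was 4.43% in cKO and 4.99% in WT. Both libraries held 16 barcodes in common, and none of these was an early cell in both. Summed UMIs were scaled to the total of the same cells (CPM), folds are log2 of CPM plus 5, and every interval is a 95% interval for counting error only. Since each genotype is 1 library, the cKO and WT values could not be tested against each other, and differences below describe these 2 libraries. A lower level in a sum over cells can come from fewer cells of a kind or from less RNA per cell, and these cannot be told apart where few cells carry the gene.

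The 4 markers of the label that the rule did not use were found in the chosen cells. The label and its markers were set with earlier results of these data known, so this describes the cells and does not test the label. Ctla2a, a cysteine protease inhibitor homologue, lay at 378 CPM in cKO and 418 CPM in WT early cells. Plac8 lay at 2480 CPM in cKO and 2638 CPM in WT, and the gamma chain constant gene Trgc1 at 1062 CPM in cKO and 1195 CPM in WT. Erg, an ETS-family transcription factor, was low, at 21.0 CPM in cKO and 26.9 CPM in WT. The Myl10-positive cells without Kit and Cpa3, described below, held less of each but were not without them. There, Plac8 lay at 999 CPM in cKO and 1122 CPM in WT, and Trgc1 at 542 CPM in cKO and 572 CPM in WT. In the 15 cKO DN3 cells with at least 10 Ptcra UMIs, Erg was higher than in early cells, at 31.2 CPM. Mast cell and basophil markers were almost absent: 3 of 12 were detected in cKO with 11 UMIs and 4 of 12 in WT with 17 UMIs, and Ms4a2, Fcer1a, Cma1, Tpsb2 and Tpsab1 were at 0 in both libraries. Taking 3 UMIs as the most that a count of 0 allows, the limit is 0.656 CPM in cKO and 0.576 CPM in WT. Il2ra, the bead target, had a UMI in 84.9% of cKO and 84.1% of WT early cells. The T-lineage commitment factor Bcl11b was already at 611 CPM in cKO and 804 CPM in WT. Flt3, a receptor of the earliest progenitors, reached only 1.31 CPM in cKO and 0.576 CPM in WT.

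Cpa3 had a UMI in 76.6% of cKO early cells (72.1 to 80.8) and 79.1% of WT early cells (75.2 to 82.7). Kit had one in 42.1% of cKO (37.1 to 47.2) and 43.2% of WT early cells (38.7 to 47.9). In resting CD4 CD8 double-positive cells of the same libraries, which should lack both genes, Kit had a UMI in 0.899% of cKO and 0.781% of WT cells and Cpa3 in 0.699% of cKO and 0.284% of WT cells, at median depths of 2379 UMIs in cKO and 2555 UMIs in WT. After thinning to 2000 UMIs per cell, Cpa3 was seen in 40.8% of cKO and 42.7% of WT early cells, against 0.403% of cKO and 0.258% of WT double-positive cells. The cap on cycle genes alone left out 270 further cKO and 271 further WT cells with Kit or Cpa3.

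**Figure D1:**
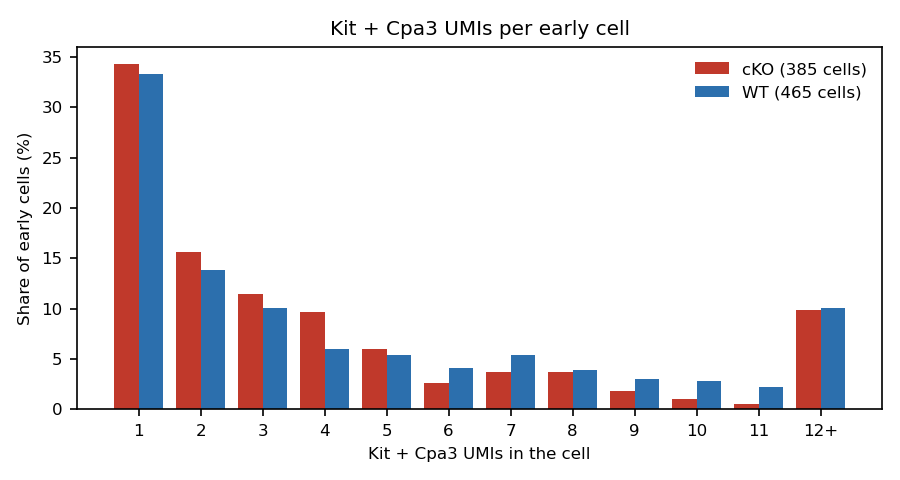
Distribution of Kit plus Cpa3 UMIs per early cell (x axis) as a share of the early cells of each library in percent (y axis), with cKO bars left of WT bars. The lowest class, 1 UMI, holds 34.3% of cKO and 33.3% of WT early cells, and cells with 5 or more UMIs make up 29.1% in cKO and 36.8% in WT.

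Cells just inside the rule on Kit and Cpa3, with 1 UMI, numbered 132 in cKO and 155 in WT. Just outside it, with 0 UMIs and all other limits met, were 983 cKO and 911 WT cells. Ptcra of 2, just inside, held 44 cKO and 34 WT cells, and Ptcra of 3, just outside, 21 cKO and 37 WT cells. Cells with 5 or more Kit plus Cpa3 UMIs made up 29.1% of cKO early cells (24.6 to 33.9) and 36.8% of WT early cells (32.4 to 41.3), a ratio of 0.791 (0.618 to 1.01) whose interval includes no difference. Depth moved with this class: its median was 13290 UMIs in cKO and 11876 in WT, against 9762 UMIs in cKO and 8975 UMIs in WT cells with 1 UMI, and its part in the values that follow was not tested.

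Genes of the earliest thymic stages were graded along the level of Kit plus Cpa3. Cd34, a surface sialomucin of progenitors, lay at 35.3 CPM in cKO and 32.2 CPM in WT cells with 5 or more UMIs, against 0.732 CPM in cKO and 0.673 CPM in WT in cells with 1 UMI. Lyl1, a basic helix-loop-helix factor of progenitors, lay at 42.9 CPM in cKO and 49.2 CPM in WT cells with 5 or more UMIs, against 0 CPM in cKO and 4.04 CPM in WT. Hhex, a homeobox factor, lay at 41.0 CPM in cKO and 38.5 CPM in WT, against 2.20 CPM in cKO and 7.40 CPM in WT. Spi1, which encodes the myeloid and progenitor factor PU.1 and is shut off at commitment, lay at 31.5 CPM in cKO and 55.5 CPM in WT, against 10.3 CPM in cKO and 6.73 CPM in WT. Of the 17 early progenitor genes with at least 50 UMIs, 14 in cKO and 15 in WT were at least 1.5-fold higher in the cells with 5 or more UMIs and none was lower. Of all 8324 genes, 4.82% in cKO and 5.79% in WT were higher and 6.37% in cKO and 4.05% in WT lower. Since the level of Kit and Cpa3 defined the classes, this order is a description.

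Part of the T-cell program was lower in the cells with 5 or more UMIs. Of 18 CD3 and TCR signalling genes, 8 in each library were at least 1.5-fold lower and none was higher, with medians of -0.44 in cKO and -0.46 in WT. Of 21 T-lineage transcription factors, 7 in each library were lower and 1 in each was higher, Runx3, a Runt-family factor, at 0.87 in cKO and 1.10 in WT on the log2 scale. Of 11 TCR constant and gamma delta genes only Trac was at least 1.5-fold lower, and 8 in cKO and 7 in WT lay above 0, with Trgc1 at 0.74 in cKO and 1.16 in WT. Cd3d, a CD3 chain, lay at 134 CPM in cKO and 101 CPM in WT cells with 5 or more UMIs, against 722 CPM in cKO and 772 CPM in WT in cells with 1 UMI. Rag1, the V(D)J recombinase subunit, lay at 8.20 CPM in cKO and 11.2 CPM in WT cells with 5 or more UMIs, against 116 CPM in cKO and 58.5 CPM in WT. Notch3, a Notch receptor, lay at 20.8 CPM in cKO and 38.9 CPM in WT, against 82.0 CPM in cKO and 74.7 CPM in WT. Across all 5 groups of cells in the heatmap, Rag1 and Notch3 were higher at each later group in both libraries. The cells with 5 or more UMIs thus held the least Cd3d and Rag1 and the most Cd34 and Lyl1 of these 5 groups.

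**Figure D2:**
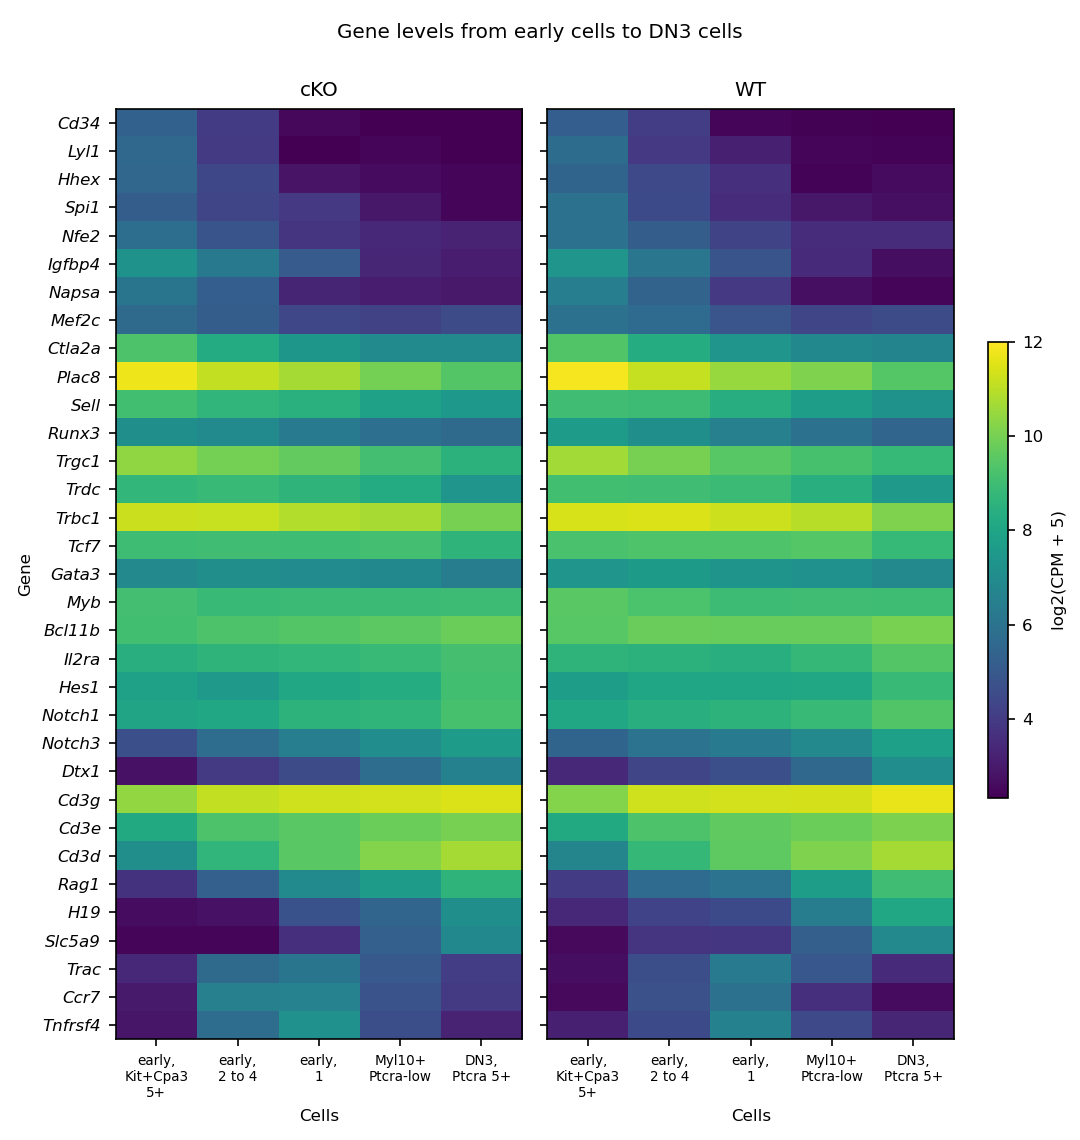
Colour gives log2(CPM + 5) of 33 genes (rows) in early cells with 5 or more, 2 to 4 or 1 Kit plus Cpa3 UMIs, in Myl10-positive Ptcra-low cells and in DN3 cells with at least 5 Ptcra UMIs (columns), for cKO (left) and WT (right). Cd34, Lyl1 and Hhex are bright only at the left of each panel, Rag1, Notch3 and Dtx1 toward the right, and Trac, Ccr7 and Tnfrsf4 peak within the cells with 1 or 2 to 4 UMIs.

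The transcript that chose a cell also separated kinds of cells. Cells with both Kit and Cpa3 numbered 72 in cKO and 104 in WT, cells with Cpa3 only 223 in cKO and 264 in WT, and cells with Kit only 90 in cKO and 97 in WT. Cd34 lay at 50.7 CPM in cKO and 48.1 CPM in WT cells with both, against 3.94 CPM in cKO and 3.66 CPM in WT cells with Cpa3 only and 8.82 CPM in cKO and 10.0 CPM in WT cells with Kit only. Trac, the TCR alpha constant gene that is used late, lay at 160 CPM in cKO and 134 CPM in WT cells with Kit only, against 7.09 CPM in cKO and 2.56 CPM in WT cells with Cpa3 only. Ccr7, a chemokine receptor of mature thymocytes, lay at 277 CPM in cKO and 110 CPM in WT cells with Kit only, against 6.70 CPM in cKO and 1.83 CPM in WT cells with Cpa3 only. Tnfrsf4 (OX40) lay at 290 CPM in cKO and 159 CPM in WT, against 4.33 CPM in cKO and 2.20 CPM in WT.

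At least 1 UMI of Trac, Ccr7 or Tnfrsf4 was held by 36 of the 90 cKO and 28 of the 97 WT cells with Kit only, and by 16 of the 223 cKO and 14 of the 264 WT cells with Cpa3 only. In all, such cells made up 15.8% of cKO early cells (12.3 to 19.9) and 11.4% of WT early cells (8.66 to 14.6). At least 2 UMIs of these genes together were held by 35 cKO and 27 WT cells, 9.09% of cKO and 5.81% of WT early cells. For these cells the data go against the label of early DN cells, since Trac, Ccr7 and Tnfrsf4 belong to later T cells. For cells with only 1 such UMI this is less certain. After thinning, the 6 genes whose detection differed most between cells holding Kit and cells holding Cpa3 only were Rgcc, Myl10, Cd3g, Lgals1, Gzma and Ifngr1, and each was seen less often with Kit. Myl10, a myosin light chain gene, was seen in 56.8% of cKO and 56.7% of WT cells with Kit, against 80.3% of cKO and 79.5% of WT cells with Cpa3 only. Cd3g was seen in 71.6% of cKO and 66.7% of WT cells with Kit, against 92.4% of cKO and 89.0% of WT cells with Cpa3 only.

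**Figure D3:**
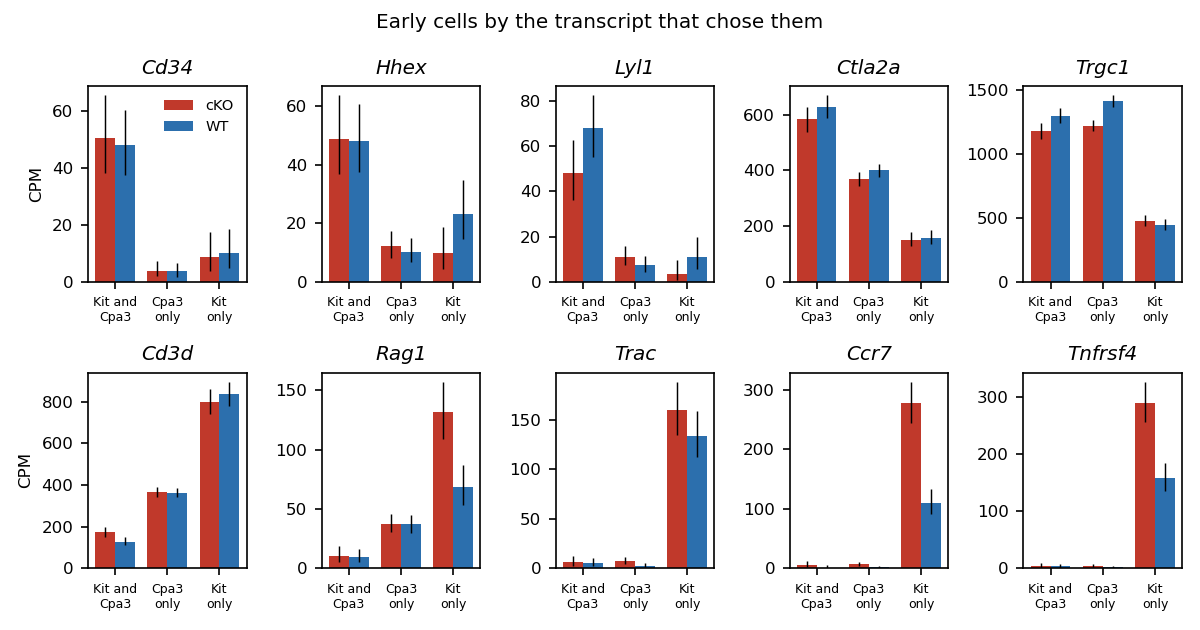
Levels of 10 genes in CPM (y axes, separate scales) in early cells with Kit and Cpa3, Cpa3 only or Kit only (x axes), with cKO bars left of WT bars and 95% Poisson intervals of the summed UMIs. Cd34, Hhex and Lyl1 are highest in cells with both transcripts, and Trac, Ccr7 and Tnfrsf4 in cells with Kit only.

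Other cell types were looked for by their markers. Nkg7 and Gzma, cytotoxic granule genes, were broadly present, with UMIs in 282 and 234 of 385 cKO cells and in 374 and 274 of 465 WT cells, so they do not mark a few stray cells. Tyrobp, an adaptor of NK and myeloid receptors, was narrower, with 337 UMIs in 33 cKO cells and 424 UMIs in 43 WT cells. It was higher in cells with 5 or more Kit plus Cpa3 UMIs than in those with 1, by 1.845 in cKO and 1.834 in WT on the log2 scale. Cst3, a cysteine protease inhibitor abundant in dendritic cells, had 1747 UMIs in cKO, of which 1 cell held 740, and 1256 in WT, of which 1 cell held 335. H2-Aa had 62 UMIs in cKO, 60 of them in 1 cell, and 64 in WT, 39 of them in 1 cell. At least 3 different myeloid and dendritic markers were held by 13 cKO and 18 WT cells, and at least 3 innate lymphoid and NK markers by 82 cKO and 118 WT cells. Without Nkg7, Gzma and Il17rb, which many early cells held, at least 3 of the other 11 innate markers were held by 4 cKO and 0 WT cells. Among these, the NK receptor gene Ncr1 had 19 UMIs in 3 cKO cells, Klre1 14 UMIs in 2 cKO cells, Klrb1c 7 UMIs in 2 cKO cells and the cytokine gene Il13 10 UMIs in 1 cKO cell, and all 4 were at 0 in WT. The part of such cells in the other values was not tested.

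Early cells were set against 2 neighbouring populations under the same caps but without Kit and Cpa3: 565 cKO and 535 WT Myl10-positive cells with at most 2 Ptcra UMIs, and DN3 cells. DN3 cells with at least 10 Ptcra UMIs numbered only 15 in cKO and 56 in WT, so a wider set with at least 5, of 174 cKO and 404 WT cells, was added after these counts were seen. Against the wider set, 14 of 17 early progenitor genes were at least 1.5-fold higher in early cells in each library, with medians of 1.34 in cKO and 1.44 in WT, where 7.91% of 9702 genes in cKO and 6.85% in WT were higher. TCR constant and gamma delta genes were higher for 7 of 12 in cKO and 9 of 12 in WT. Of the V(D)J recombination and double-positive genes, 7 of 14 in cKO and 6 of 14 in WT were at least 1.5-fold lower, where 5.84% of all genes in cKO and 4.38% in WT were lower. Against the Myl10-positive cells, 14 of 18 early progenitor genes were at least 1.5-fold higher in each library. There, 4.04% of 9988 genes in cKO and 4.38% in WT were higher. Only 2 of 12 TCR constant and gamma delta genes were higher in each library. Of the V(D)J and double-positive genes, 3 of 14 were lower in each, beside 1.96% of all genes in cKO and 1.32% in WT. Myl10 had a UMI in 88.8% of cKO and 90.1% of WT early cells. The rule separates these populations, so the counts describe what came with it.

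Among the 12 genes highest over DN3 cells with at least 10 Ptcra UMIs, several were spread over many cells. Tes, a focal adhesion protein, lay at 48.4 CPM in cKO and 59.3 CPM in WT early cells, against 2.38 CPM in cKO and 4.32 CPM in WT in the wider DN3 set. Nrgn, a calmodulin-binding protein known from neurons, lay at 67.6 CPM in cKO and 87.8 CPM in WT, against 9.53 CPM in cKO and 0.270 CPM in WT. Cst7, which encodes cystatin F, lay at 39.4 CPM in cKO and 33.2 CPM in WT, against 1.79 CPM in cKO and 0 CPM in WT. Napsa, an aspartic protease, Adgrg3, an adhesion receptor, and Itgb7, an integrin chain used in homing, lay between 27.1 and 49.0 CPM in early cells and at no more than 2.98 CPM in that set. Ccl5, Tyrobp, Ifitm1, Cd74, Tnfrsf4 and Cd2 completed the 12. Each of these 6 came from fewer cells, between 19 and 43 per library.

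The 12 lowest genes included Rag1 and the Notch genes Dtx1 and Notch3. Rag1 lay at 49.4 CPM in cKO and 35.1 CPM in WT early cells, against 384 CPM in cKO and 517 CPM in WT in the wider DN3 set. Dtx1, a Notch target, lay at 9.85 CPM in cKO and 12.9 CPM in WT, against 89.9 CPM in cKO and 130 CPM in WT. H19, an imprinted noncoding RNA, lay at 7.66 CPM in cKO and 11.5 CPM in WT, against 137 CPM in cKO and 276 CPM in WT. Slc5a9, a sugar transporter gene, lay at 2.63 CPM in cKO and 5.57 CPM in WT, against 110 CPM in cKO and 112 CPM in WT. Hdac4, a class II histone deacetylase, lay at 92.1 CPM in cKO and 117 CPM in WT, against 328 CPM in cKO and 412 CPM in WT. Pld4, Itgb4, Ets2, Hdgfl3, Bst1, Chrna9 and Notch3 were the others. All 24 genes kept their direction in both libraries against the wider set. That set includes the DN3 cells that ranked the genes, and the early cells are the same, so this is no independent check.

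Between genotypes, early cells made up 5.13% of kept barcodes in cKO (4.64 to 5.66) and 6.52% in WT (5.95 to 7.11), a ratio of 0.788 (0.686 to 0.904). The direction depended on the barcode filter: with at most 5% mitochondrial UMIs the ratio was 1.05. Bead enrichment and the share of all other cells also set this ratio, and their part was not tested.

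Few genes differed by 1.5-fold between the early cells of the libraries. Of 9044 genes with at least 50 UMIs, 75 (0.829%) were at least 1.5-fold higher in cKO and 82 (0.907%) lower, and the median gene stood at -0.039 on the log2 scale. These counts depended on the choice of cells: 46 were higher when Cpa3 alone chose the cells and 144 when Kit alone did. Several of the 12 highest named genes came from very few cells. Gzmc, a granzyme gene, had 525 UMIs in 3 cKO cells, 76.8% of them in 1 cell, against 2 UMIs in WT. Xcl1, a chemokine, had 425 UMIs in 17 cKO cells, against 52 in 17 WT cells. Ccl5 had 557 UMIs in 21 cKO cells, 54.6% of them in 1 cell, against 280 in 30 WT cells, 57.5% of them in 1 cell. S100a4 and S100a6, calcium-binding proteins of activated cells, had 316 UMIs each in 31 and 33 cKO cells, against 44 and 52 in 20 and 26 WT cells. When Cpa3 alone chose the cells, the log2 folds fell to 0.56 for S100a4 and 0.50 for S100a6, against 2.46 and 2.31 with the rule as given, and Gzmc had a fold of 0. In all, 10 of the 24 named genes were within 1.5-fold or turned under at least 1 alternative, and 14 stayed past it under every alternative run. Ccr7 is among the 10 only by construction, through the alternative that left out every cell holding it. Ccr7 had 275 UMIs in 32 cKO cells, 30.5% of them in 1 cell, against 117 in 31 WT cells. Bcl2a1d, whose near-identical copies may share its reads, had 104 UMIs in 26 cKO cells, against 34 in 15 WT cells.

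Others were spread widely. Ssbp4, a single-stranded DNA binding protein gene, lay at 108 CPM in 259 cKO cells, against 41.7 CPM in 182 WT cells, a ratio of 2.60 (2.21 to 3.06). H2-Q7, a nonclassical MHC class I gene, lay at 251 CPM (237 to 266) in 286 cKO cells, against 117 CPM (108 to 126) in 199 WT cells. H2-Q6 lay at 46.2 CPM in cKO and 17.3 CPM in WT, and its reads and those of H2-Q7 may be split by their similarity. Slc15a2, a peptide transporter, lay at 26.9 CPM in cKO and 10.6 CPM in WT. Ssbp4, H2-Q7, H2-Q6 and Slc15a2 were also at least 1.5-fold higher in cKO in the Myl10-positive and the DN3 cells, by 1.19 to 1.98 in Myl10-positive cells and by at least 1.13 in DN3 cells on the log2 scale. Of all genes, 0.708% were at least 1.5-fold higher in cKO Myl10-positive cells and 1.03% in cKO DN3 cells. Dqx1, a helicase-like gene, lay at 52.3 CPM in cKO and 21.3 CPM in WT, in 40 cells of each library.

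**Figure D4:**
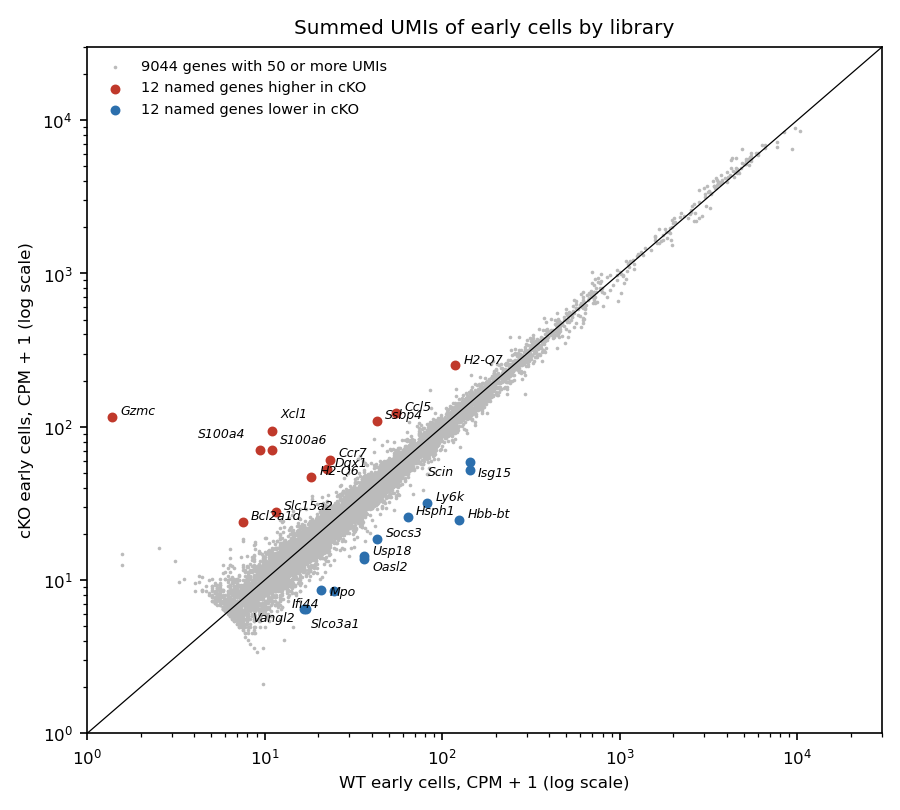
Summed UMIs of the early cells as CPM + 1 in cKO (y axis, log scale) against WT (x axis, log scale), 1 point per gene for the 9044 genes with at least 50 UMIs, with the line of equality. The 12 named genes higher in cKO (red), led by Gzmc, lie above the line and the 12 lower in cKO (blue) below it, while most genes follow the line.

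Among the 12 lowest named genes, Scin stood out for its spread. This actin-severing protein (scinderin) lay at 51.2 CPM (44.8 to 58.2) in 101 cKO cells, against 142 CPM (132 to 153) in 246 WT cells, a ratio of 0.359 (0.309 to 0.417). It was lower in cKO in all 3 classes of early cells: 79.5 CPM in cKO and 207 CPM in WT with 5 or more Kit plus Cpa3 UMIs, 51.3 CPM in cKO and 127 CPM in WT with 2 to 4, and 18.3 CPM in cKO and 61.2 CPM in WT with 1. On the log2 scale, Scin was also lower in cKO in Myl10-positive cells (-1.21), the wider DN3 set (-0.89) and all other kept cells (-0.73). Hsph1, a heat-shock chaperone, lay at 24.7 CPM in cKO and 62.8 CPM in WT. Socs3, a feedback inhibitor of cytokine receptors, lay at 17.5 CPM in cKO and 42.1 CPM in WT. Ly6k, a surface protein gene, lay at 30.9 CPM in cKO and 81.2 CPM in WT. Vangl2, a planar polarity gene, Slco3a1, a transporter gene, and Mpo, the myeloperoxidase of myeloid progenitors, lay between 5.47 and 7.66 CPM in cKO and between 15.8 and 19.8 CPM in WT. Mpo came from 14 cKO and 24 WT cells. Hsph1 and Ly6k were also lower in cKO in Myl10-positive cells (-0.77 and -0.67), the wider DN3 set (-1.225 and -0.67) and other kept cells (-0.985 and -0.76). Slco3a1 was not, at 0.087, 0.27 and 0.205 in these populations. Hbb-bt, a beta globin gene, had 108 UMIs in 8 cKO cells, against 646 in 20 WT cells, and only 1 of 6 erythroid markers in cKO and 2 of 6 in WT had any UMI. Isg15, Ifi44, Usp18 and Oasl2 completed the 12.

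These last 4 belong to the interferon-stimulated genes, which cells switch on when interferon binds its receptor. Of 34 listed, 30 had at least 50 UMIs. These 30 were below 0 in cKO over WT early cells, with a median of -0.55 beside -0.039 for all genes. Of the 30, 15 were at least 1.5-fold lower, beside 0.907% of all genes. Isg15, a ubiquitin-like modifier, lay at 58.0 CPM (51.2 to 65.4) in 130 cKO cells, against 142 CPM (132 to 152) in 228 WT cells. Usp18, which removes that modifier, lay at 12.7 CPM in cKO and 35.3 CPM in WT, and Oasl2, of the oligoadenylate synthetase family, at 13.3 CPM in cKO and 35.3 CPM in WT. When Kit alone chose the cells, the fold of Usp18 was -0.076 on the log2 scale, against -1.19 with the rule as given. Ifi27 lay at 162 CPM in cKO and 290 CPM in WT, and the transcription factor Irf7 at 21.4 CPM in cKO and 41.1 CPM in WT. Ifi47, an interferon-inducible GTPase, was nearly level, at 96.0 CPM in cKO and 98.1 CPM in WT. The same 30 genes had medians of -0.61 in Myl10-positive cells and -0.73 in DN3 cells, so the difference was also present in the neighbouring stages. In all other kept cells 33 genes of the list had a median of -0.39. When Kit alone chose the early cells, the median was -0.26.

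The promoters of 5 of the lower interferon genes are shown because these genes were low together: the window runs from 250 bases before to 50 after the transcription start (RefSeq, GRCm38.p6), with capitals marking GAAANNGAAA, the spaced repeat bound by interferon regulatory factors, searched on both strands. Isg15 is at chr4:156200769-156201068 on the minus strand, Slfn5 at chr11:82951852-82952151 on the plus strand, Oasl2 at chr5:114896684-114896983 on the plus strand, Ifi44 at chr3:151749861-151750160 on the minus strand and Irf7 at chr7:141266375-141266674 on the minus strand.
Isg15: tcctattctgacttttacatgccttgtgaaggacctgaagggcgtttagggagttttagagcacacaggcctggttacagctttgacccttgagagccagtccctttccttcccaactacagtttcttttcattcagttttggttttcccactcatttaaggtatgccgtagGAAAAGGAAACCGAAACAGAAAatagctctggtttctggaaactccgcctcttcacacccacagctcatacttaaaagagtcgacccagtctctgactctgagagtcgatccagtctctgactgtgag
Slfn5: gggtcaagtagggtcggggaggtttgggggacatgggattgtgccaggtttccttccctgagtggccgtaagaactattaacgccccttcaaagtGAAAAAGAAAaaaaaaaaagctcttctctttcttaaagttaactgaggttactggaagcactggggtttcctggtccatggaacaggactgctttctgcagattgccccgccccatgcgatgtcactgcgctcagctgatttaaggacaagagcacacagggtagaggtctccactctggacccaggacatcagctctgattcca
Oasl2: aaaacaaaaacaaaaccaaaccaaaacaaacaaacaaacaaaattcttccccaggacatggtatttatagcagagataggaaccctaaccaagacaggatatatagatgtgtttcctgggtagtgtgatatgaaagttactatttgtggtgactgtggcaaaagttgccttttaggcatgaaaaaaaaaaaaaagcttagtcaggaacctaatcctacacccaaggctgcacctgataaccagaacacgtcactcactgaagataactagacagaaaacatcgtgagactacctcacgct
Ifi44: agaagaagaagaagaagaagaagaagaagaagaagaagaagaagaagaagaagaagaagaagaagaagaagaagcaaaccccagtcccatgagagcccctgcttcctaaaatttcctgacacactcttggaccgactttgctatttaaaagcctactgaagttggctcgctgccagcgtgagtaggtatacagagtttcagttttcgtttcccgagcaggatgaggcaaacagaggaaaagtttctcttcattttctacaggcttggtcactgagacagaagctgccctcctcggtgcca
Irf7: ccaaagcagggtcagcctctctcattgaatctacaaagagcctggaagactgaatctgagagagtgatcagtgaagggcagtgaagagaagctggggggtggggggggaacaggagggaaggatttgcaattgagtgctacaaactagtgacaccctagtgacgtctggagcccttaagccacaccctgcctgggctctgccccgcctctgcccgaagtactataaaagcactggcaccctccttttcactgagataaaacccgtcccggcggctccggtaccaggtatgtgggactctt
The Isg15 window held 3 overlapping matches and the Slfn5 window 1 match, and these letters are not in the Oasl2, Ifi44 and Irf7 windows. Slfn5, a Schlafen family gene, lay at 9.41 CPM in cKO and 20.2 CPM in WT. Of the 34 genes of the list, 24 had a promoter in the table and 15 of these (62.5%) held a match, against 1079 of 27025 genes (3.99%). A match is a run of letters and does not show that a factor was bound.

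Genes that respond to glucocorticoids or FOXO factors leaned the other way. Of 17, 5 were at least 1.5-fold higher in cKO and 1 lower, with a median of 0.35. Of all 9044 genes, 0.829% were higher and 0.907% lower. Tsc22d3 (GILZ), a glucocorticoid target, lay at 173 CPM in cKO and 84.5 CPM in WT. Txnip, a thioredoxin inhibitor, lay at 63.7 CPM in cKO and 33.6 CPM in WT, and Ddit4, an mTOR inhibitor, had a ratio of 1.99 (1.44 to 2.79). Ssbp4 and Slc15a2 are the other 2 higher members, and both were placed in the list with earlier results of these libraries known. Sgk1, a kinase induced by glucocorticoids, went against the group, at 10.3 CPM in cKO and 20.9 CPM in WT. The medians were 0.64 in Myl10-positive cells and 0.39 in DN3 cells. In all other kept cells the median was 0.52 and all 17 lay above 0, so the difference was not particular to the early cells.

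**Figure D5:**
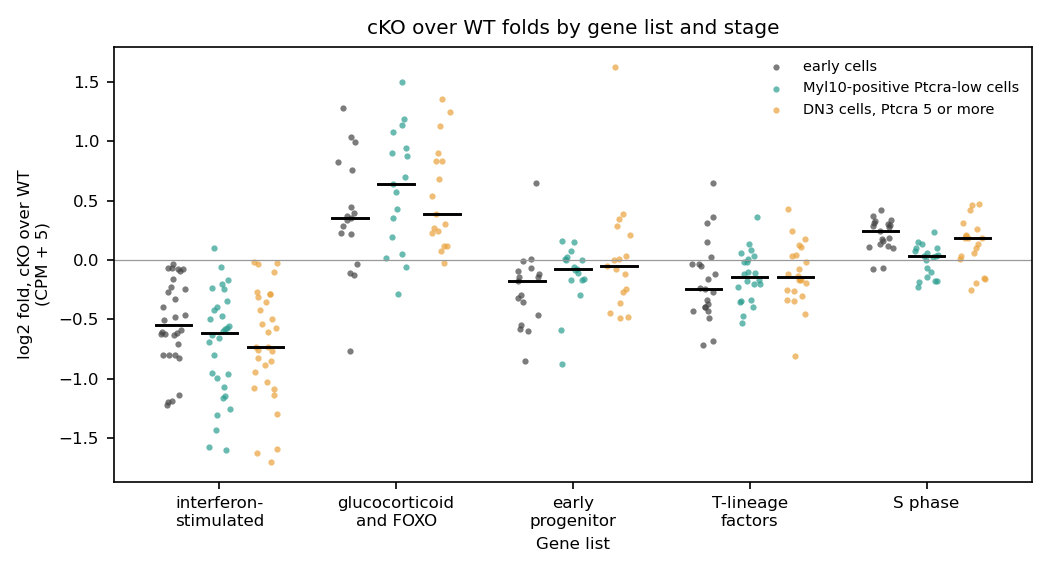
Log2 fold of cKO over WT (y axis) for genes of 5 lists (x axis) with at least 50 UMIs in the early cells, 1 point per gene, in early cells (grey), Myl10-positive Ptcra-low cells (green) and DN3 cells with at least 5 Ptcra UMIs (orange), with bars at the medians. The interferon genes lie below 0 in all 3 populations, except 1 gene in Myl10-positive cells, with medians of -0.55 in early, -0.61 in Myl10-positive and -0.73 in DN3 cells, and the glucocorticoid and FOXO list mostly above it.

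Of 17 early progenitor genes, 1 was at least 1.5-fold higher in cKO and 2 lower, and 15 lay below 0, with a median of -0.17. Of all 9044 genes, 0.829% were higher and 0.907% lower. In the cells with 5 or more Kit plus Cpa3 UMIs, 4 of the 17, Ifitm1, Spi1, Ly6a and Sox4, were at least 1.5-fold lower and none was higher, where 3.24% of 6966 genes were lower and 1.18% higher. Ifitm1, a small interferon-inducible membrane protein, lay at 35.2 CPM in cKO and 67.4 CPM in WT, and Ly6a (Sca-1) at 60.4 CPM in cKO and 93.7 CPM in WT. The UMIs of Ifitm1 came from only 25 cKO and 29 WT cells, with 14.9% in cKO and 20.2% in WT in 1 cell. Cd44, an adhesion receptor, lay at 19.7 CPM in cKO and 10.7 CPM in WT. Sox4, a progenitor transcription factor, lay at 655 CPM in cKO and 981 CPM in WT, just inside 1.5-fold on the log2 scale at -0.58. Spi1 had a ratio of 0.634 (0.483 to 0.826), Mef2c, a MADS-box factor, 0.695 (0.561 to 0.859), Lyl1 0.739 (0.556 to 0.979) and Nfe2, a basic leucine zipper factor, 0.773 (0.615 to 0.970), all with intervals below 1. With 5 CPM added, all lay within 1.5-fold. For Spi1, at -0.55 on the log2 scale, this came only from the added 5 CPM, since its plain ratio is past 1.5-fold. Cd34, at 16.4 CPM in cKO and 17.5 CPM in WT, and Hhex, at 20.8 CPM in cKO and 23.4 CPM in WT, had ratios whose intervals include 1.

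T-lineage transcription factors had a median of -0.24, with 17 of 22 below 0, 2 at least 1.5-fold lower and 1 higher. Beside this and the counts that follow, 0.907% of all 9044 genes were lower and 0.829% higher. Lef1, a relative of Tcf7, lay at 47.9 CPM in cKO and 81.8 CPM in WT, and Id3, an inhibitor of E proteins, at 18.2 CPM in cKO and 32.1 CPM in WT. Ikzf3 (Aiolos) was the higher one, at 9.19 CPM in cKO and 4.03 CPM in WT. Its UMIs came from only 24 cKO and 14 WT cells, with 14.3% in cKO and 23.8% in WT in 1 cell. Gata3 lay at 123 CPM in cKO and 167 CPM in WT and Tcf7 at 515 CPM in cKO and 620 CPM in WT, both within 1.5-fold. With 5 CPM added, none of 17 Notch pathway genes and none of 19 S phase genes passed 1.5-fold, although 17 of the S phase genes lay above 0 with a median of 0.25. Without the added 5 CPM, the ratios of Hes5, a Notch pathway gene, and Spib, of the T-lineage list, were past 1.5-fold. They were 0.618 (0.334 to 1.11) for Hes5 and 0.613 (0.373 to 0.989) for Spib. Of 9 mature T and Treg markers 4 were higher in cKO, with a median of 0.58. The median was 0.035 when Cpa3 alone chose the cells and 0.051 without cells holding Trac, Ccr7 or Tnfrsf4. Tnfrsf4 is 1 of the 4 higher markers, and that last setting removed it by construction. Cells holding Trac, Ccr7 or Tnfrsf4 made up 15.8% of cKO and 11.4% of WT early cells, and their part in the median was not tested.

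Other groups gave single genes. Beside the counts that follow, 0.829% of all 9044 genes were at least 1.5-fold higher in cKO early cells and 0.907% lower. Of 18 cytokine receptor and STAT5 pathway genes, 2 were at least 1.5-fold higher in cKO and 1 lower, with a median of -0.035. Cish, a STAT5 target and feedback inhibitor, lay at 33.0 CPM in cKO and 17.5 CPM in WT. Il2rb, the IL-2 receptor beta chain, lay at 17.9 CPM in cKO and 9.22 CPM in WT. Its UMIs came from only 17 cKO and 16 WT cells, with 20.7% of those in cKO in 1 cell. Socs3 was the lower gene. Bcl2, a survival factor, lay at 380 CPM in cKO and 310 CPM in WT, at 0.29 on the log2 scale. Cish and Bcl2 were also higher in cKO in Myl10-positive cells (1.19 and 0.84) and in the wider DN3 set (0.78 and 0.74). In all other kept cells they stood at 0.49 and 0.51. Il2rb was not higher in Myl10-positive cells, at -0.14. Of 18 CD3 and TCR signalling genes only Sla, an adaptor that dampens receptor signals, passed 1.5-fold, at 59.1 CPM in cKO and 34.8 CPM in WT. Sla was also higher in cKO in Myl10-positive cells (0.70), the wider DN3 set (0.76) and all other kept cells (0.48) on the log2 scale. The proximal kinase Lck lay at 494 CPM in cKO and 617 CPM in WT. With 5 CPM added, none of 12 TCR constant and gamma delta genes passed 1.5-fold. The plain ratio of Maf, a member of that list, was past it at 0.607 (0.405 to 0.897). Trbc1 lay at 2213 CPM in cKO and 2693 CPM in WT, and Trdc at 420.5 CPM in cKO and 516 CPM in WT.

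Of 17 surface and homing genes, Ccr7 and Ly6c2 passed 1.5-fold. Ly6c2, which encodes Ly6C, had 63 UMIs in cKO, all in 1 cell with 2 to 4 Kit plus Cpa3 UMIs, and 3 UMIs in 3 WT cells. Ccr9, the receptor for a thymic chemokine, lay at 61.0 CPM in cKO and 88.7 CPM in WT, and Cd69, an activation marker, at 211 CPM in cKO and 163 CPM in WT. Of 18 heat-shock and immediate early genes, 1 was at least 1.5-fold lower, Hsph1, and 16 were below 0, with a median of -0.17. Hsp90aa1, a cytosolic chaperone, lay at 740 CPM in cKO and 1012 CPM in WT, while Jun lay at 508 CPM in cKO and 510 CPM in WT. None of 14 V(D)J recombination and double-positive genes passed 1.5-fold. Rag1 lay at 49.4 CPM in cKO and 35.1 CPM in WT.

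Setdb1, an H3K9 methyltransferase, lay at 34.1 CPM in cKO and 33.8 CPM in WT early cells, a ratio of 1.01 (0.809 to 1.26). Setdb2 lay at 5.25 CPM in cKO and 5.95 CPM in WT. None of 15 measured genes of the H3K9 methylation and HUSH silencing machinery passed 1.5-fold. Resf1, a SETDB1 partner, lay at 130 CPM in cKO and 105 CPM in WT, and Atf7ip, which stabilises SETDB1, at 68.7 CPM in cKO and 90.3 CPM in WT. Of 12 genes earlier found higher in cKO Treg-like cells of these libraries, 7 had at least 50 UMIs in the early cells and none passed 1.5-fold. This list was chosen on the same samples and is not independent evidence. Below that minimum, Cfap53 had 27 UMIs in 4 cKO cells against 1 UMI in WT, and Gm19951 27 UMIs in 9 cKO cells against 1 UMI in WT.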

How the data were processed

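The authors deposited raw UMI counts per gene and barcode, 1 matrix per library, written by Cell Ranger 6.1.1 per the file headers. CASAVA 1.8 and Seurat 4.0.3 are also named per the submitters' processing notes, and their genome build was not given in the sources used here. Barcodes with at least 500 genes, 1000 UMIs and at most 10% mitochondrial UMIs were kept. Doublets were scored with scrublet in scanpy 1.11.5 at an expected rate of 0.06. The automatic threshold of 0.29 in WT was used for both libraries, because the cKO threshold of 0.638 called 1 barcode. Early cells above it (2 in cKO, 0 in WT) were kept, and leaving them out is an alternative. UMIs were summed per population, scaled to CPM and compared as log2 of CPM plus 5 for genes with at least 50 UMIs over both libraries, in Python 3.11.15 with numpy 2.4.6, scipy 1.17.1 and pandas 2.3.3. Figures used matplotlib 3.10.9. Shares carry Clopper-Pearson, sums Poisson and ratios exact binomial intervals at 95%. Shares called thinned used 2000 UMIs per cell. The fold code was tested on simulated data. The level of 1 listed gene is not reported here. The members and gene lists were chosen with earlier results of these data known. The named genes were the 12 highest and 12 lowest by fold with at least 100 UMIs, without gene models, ribosomal, mitochondrial, TCR and Ig segment genes and genes of the rule, plus the genes of the rule and up to 6 members of each list. For the DN3 comparison the smaller of the 2 libraries' folds ranked them, and for Kit against Cpa3 the 6 largest differences in detection were taken.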

Additional observations from a re-analysis of the deposited data

Results flagged for a closer look

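Xcl1, a chemokine gene, stood at 2.71 on the log2 scale in cKO over WT early cells and at -1.05 in cKO over WT Myl10-positive Ptcra-low cells, opposite directions in neighbouring populations. The difference was not tested. In Myl10-positive cells it had 2 UMIs in 1 cKO cell and 31 UMIs in 4 WT cells, under the minimum of 50 UMIs used for folds elsewhere, and 28 of the WT UMIs lay in 1 cell. In early cells its UMIs lay in 17 cells of each library, and when Cpa3 alone chose the cells its fold was -0.29.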

How the results depend on the processing

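There is 1 library per genotype, so no replicate could be left out. No paired analysis was possible because each genotype has a single library. The early share, cKO over WT, was 1.05 with at most 5% mitochondrial UMIs, 0.681 with no UMI of the cycle genes and 1.59 without cells holding markers of other cell types. That last setting left 5 cKO and 3 WT cells, so no folds were computed under it. Genes at least 1.5-fold higher in cKO numbered 144 when Kit alone chose the cells, 46 when Cpa3 alone did, 48 with the rule read after thinning and 164 with a pseudocount of 1. Genes lower numbered 128 with Kit alone, 148 with no cycle gene UMI and 229 with a pseudocount of 1. The interferon median was -0.43 with at least 2 Kit plus Cpa3 UMIs, -0.26 with Kit alone, -0.46 with Ptcra of 0, -0.58 after thinning, -0.37 with at most 5% mitochondrial UMIs, -0.66 with a pseudocount of 1, -0.63 for the mean of per-cell CPM, -0.51 when centred and -0.51 with no minimum. The glucocorticoid and FOXO median was 0.24 with at least 2 UMIs, 0.27 with Cpa3 alone, 0.28 with Ptcra of 0, 0.29 after thinning, 0.25 with at most 5% mitochondrial UMIs and 0.44 for per-cell CPM. The early progenitor median was -0.24 with Kit alone, -0.14 with Cpa3 alone, -0.20 with Ptcra of 0, -0.21 after thinning, -0.20 with at most 5% mitochondrial UMIs, -0.20 with no cycle gene UMI, -0.21 for per-cell CPM and -0.13 when centred. Without cells holding Trac, Ccr7 or Tnfrsf4, a setting chosen after seeing the data, the interferon median was -0.62 and the early progenitor median -0.13. With Cpa3 alone the fold turned to -0.29 for Xcl1, -0.043 for Bcl2a1d and -0.66 for Ccl5. After thinning it turned to -2.17 for Ccl5 and 1.12 for Hbb-bt and came within 1.5-fold for S100a4 (0.42), S100a6 (0.45), Bcl2a1d (0.49) and Slco3a1 (-0.57), and without cells holding Trac, Ccr7 or Tnfrsf4 to -0.72 for Ccl5. The cause of these shifts was not tested. Of the 24 named genes of the genotype comparison 18 kept their sign under every alternative run, as did 23 of 24 in the DN3 comparison. Ccr7 in the genotype comparison and Tnfrsf4 in the DN3 comparison were at 0 UMIs by construction when the cells holding them were left out. No other alternative changed the sign of either.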
